A study of Gallus gallus with 8 samples.

Results

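The genes described here encode the enzymes and receptors of phosphoinositide signaling in chick retina: protein kinase C (PKC), phospholipase C (PLC), diacylglycerol kinase (DGK), protein kinase D, the inositol trisphosphate receptors and the RASGRP exchange factors. Members were all probe sets whose platform gene symbol starts with the letters of one of these families (PRKC with an isoform letter, PLCB to PLCZ, DGK, PRKD, ITPR, RASGRP). The rule found 123 probe sets of 40 genes, among 38439 probe sets tested and 13009 genes with a symbol on the array. By its letters it also takes in 3 genes that belong to none of these families, namely PRKCDBP (a PKC delta binding protein of caveolae), ITPRIP and ITPRIPL2 (an interacting protein of the inositol trisphosphate receptor and its relative).

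Retinal mRNA came from 8 White Leghorn chicks aged 9 days, labelled male, with both retinas of a chick pooled on 1 Affymetrix GeneChip Chicken Genome array. The plus lens group (n = 4) wore lenses of +6.9 D on both eyes for 24 h, which focus distant images in front of the retina (imposed myopic defocus). The control group (n = 4) got no lenses. Per the labels, rings for the lenses were glued around the eyes under ether a day earlier. Whether the control chicks had rings too is not said outright.

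In this pathway a receptor, usually coupled to a G protein of the Gq class, activates PLC, which splits the membrane lipid PIP2 into inositol trisphosphate and diacylglycerol. Inositol trisphosphate opens calcium stores through its receptors, diacylglycerol recruits PKC, protein kinase D and RASGRP to the membrane, and DGK ends that signal by making phosphatidic acid. In the vertebrate retina PKC alpha is a classical marker of rod bipolar cells, PKC beta isoforms occur in bipolar and other inner retinal neurons, and a Gq and PLC beta 4 pathway serves the melanopsin response of intrinsically photosensitive ganglion cells in mice.

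The 8 arrays were alike in their overall signal, with a similar median intensity and 53.4% to 53.8% of probe sets below an intensity of 16, the level used here to call a probe set dim. Although all chicks were labelled male, W-linked signal was seen on 6 arrays, as in females. It was taken as the mean of 12 of 39 W-linked probe sets, those with a range above 4 (log2) over the arrays. That choice fixed a wide spread, but not which arrays were high. The mean log2 signal was 8.26 to 8.62 on the 6 arrays. Control replicates 2 and 4 lacked it (3.72 and 3.07), so it was present in all 4 plus lens and 2 control chicks. A fold change with a term for this signal therefore sets the 4 plus lens chicks against control replicates 1 and 3 only. It equals the fold change with just the arrays that carry the signal. Plus lens arrays were washed on one fluidics station and scanned first, and control arrays on the other and scanned last, so that neither station nor scanning order could be separated from treatment (they cannot be told apart). The log2 difference of the actin control between its 3' and 5' ends was 1.75 to 2.01 in plus lens and 1.67 to 1.77 in control arrays, and its part in the results was not tested. Of the marker lists of retinal neurons and Mueller glia most genes lay above 16 (for example 8 of 8 cone and 5 of 5 rod genes), while 0 of 6 erythrocyte genes did. Of pigment epithelium genes 2 of 8 lay above 16, with summed intensities of 362 to 644 in plus lens and 469 to 1520 in control chicks. Of oligodendrocyte genes 4 of 5 did, with sums of 4850 to 6067 in plus lens and 3297 to 8391 in control chicks.

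Most member genes lay above the dim level, as did most genes of the whole array. Judged by the probe set of highest signal, 30 of the 40 genes had a mean intensity of at least 16 (log2 of 4). Over the whole array 8547 of 13009 genes with a symbol did, each taken over the 8 arrays. Because binding differs from one probe set to the next, these intensities do not rank genes by mRNA amount. Of the 123 probe sets, 63 reached that level (51.2%), and over all probe sets tested 17859 did (46.5%). Among probe sets with a single symbol, as all members have, 14543 did (53.5%). The dim genes were PRKCH and PRKCQ, the PKC isoforms best known from T cells and epithelia, RASGRP1 of T cells, PLCB2 of blood and taste cells, the sperm enzyme PLCZ1, DGKB, DGKG, DGKK, ITPR3 and ITPRIP. For these the arrays show only that the signal was dim (at most 12.5 in geometric mean intensity), not that the mRNA was missing.

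**Figure D1:**
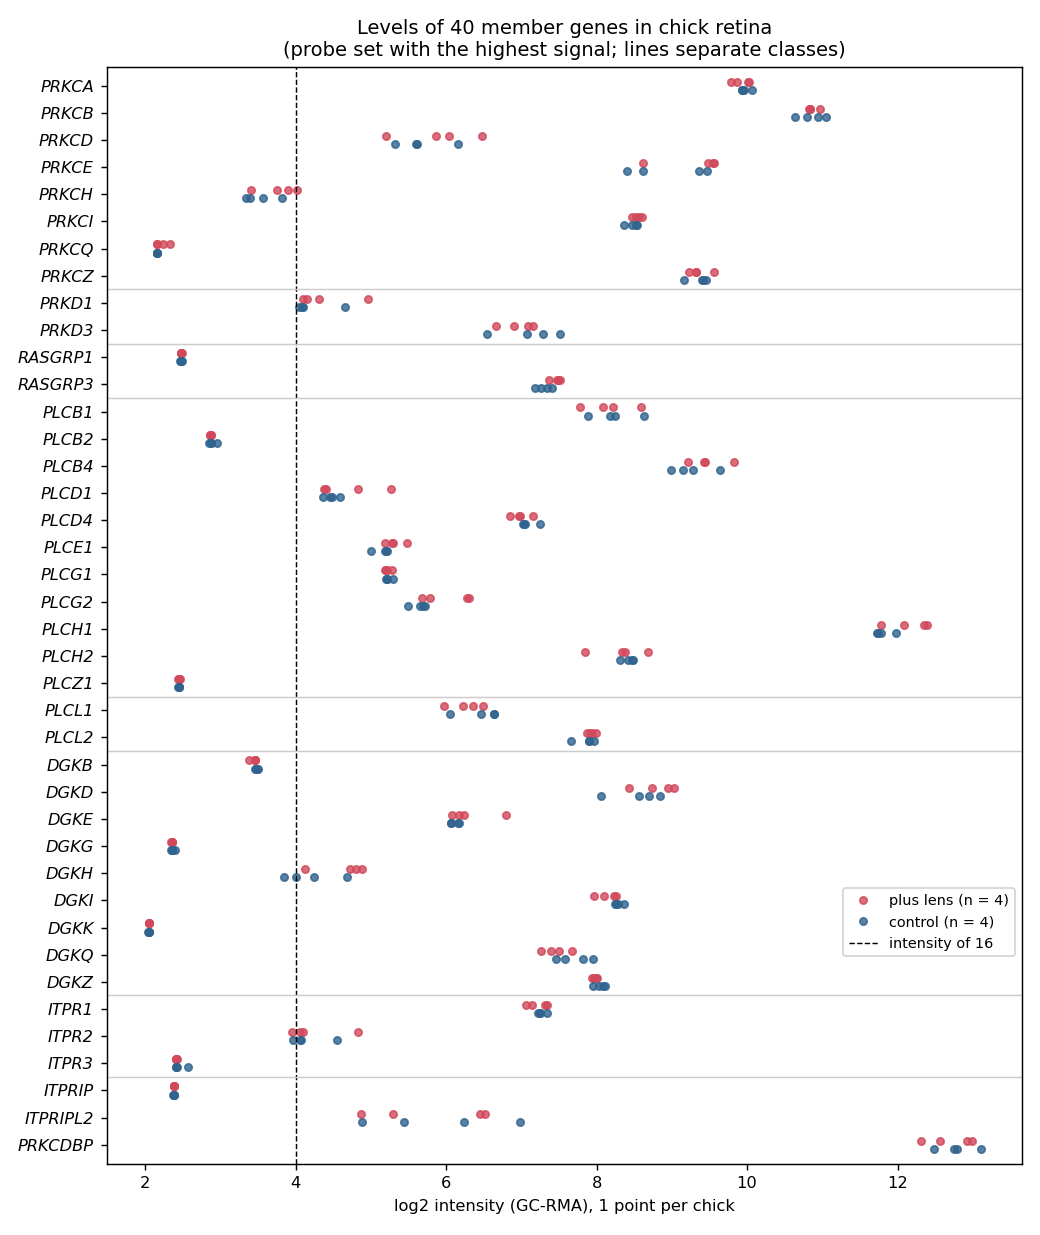
Levels of the 40 genes, each by the probe set of highest signal, as log2 of the deposited GC-RMA intensity (x axis), with 1 point per chick and the plus lens chicks above the control chicks in each row. The dashed line marks an intensity of 16. Of the genes, 10 lie below it and 30 at or above it, and within every gene the ranges of both groups overlap.

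No member passed the test between plus lens and control chicks. With limma and Benjamini-Hochberg adjustment over all 38439 probe sets, 0 of 123 member probe sets had both an adjusted p below 0.06 and a change of 1.5-fold or more, and 0 of 38439 did over the whole array (percent called 0%). The smallest adjusted p among members was 0.979. At an unadjusted p under 0.05, 3 member probe sets stood out (2.44%), less than the 4.53% over all probe sets (1741), and all 3 were higher in plus lens (background 2.49% higher and 2.03% lower). Counted over probe sets of at least 16, the 3 were 4.76% of 63, against 8.75% of all such probe sets (4.88% for those higher in plus lens). A difference of at least 1.5-fold was seen at 2 member probe sets (background 1.15%), 1 of them of at least 16 (background 1.98%), and 1 also had an unadjusted p under 0.05 (background 0.421%). Groups did not overlap at 1 member probe set (background 2.86%), a dim one of PLCD1 that was lower in plus lens (background 1.1%), and at 0 of the 63 brighter ones (background 4.47%). The shares by p and by overlap lay near or under the background, and those by fold rest on 1 or 2 probe sets. The limma p-values set each difference against the spread within groups, which holds that of chicks and of their arrays together. They do not cover station and scanning order, which went with treatment.

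The directions were mixed. Of the 63 probe sets of at least 16, 38 were higher and 25 lower in plus lens, with a median log2 fold change of 0.05, beside 9565 higher and 8294 lower with a median of 0.01 over all 17859. With 1 probe set a gene, 17 of the 30 genes were higher and 13 lower, and 12 differed by less than 0.1 on the log2 scale. The spread between chicks of a group was somewhat wider in the members than elsewhere, with a median pooled SD of 0.24 (log2) beside 0.17 over all probe sets of at least 16. A range over the 8 arrays of at least 1 (log2) was seen at 12 of the 63, or 19%, and at 15.4% of all such probe sets. Bulk retina was measured, so fewer cells of a type and less RNA per cell cannot be told apart in any of these values.

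**Figure D2:**
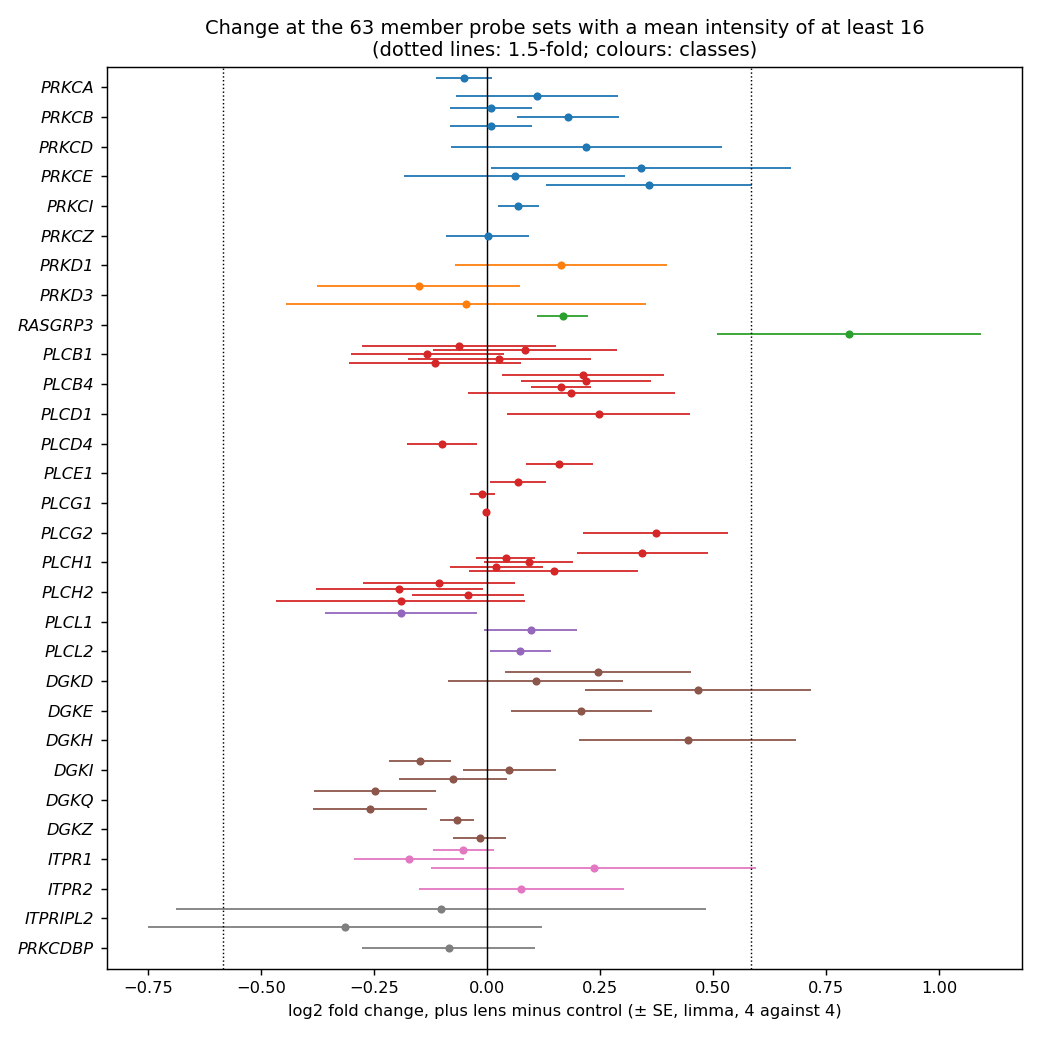
Log2 fold change of plus lens minus control (x axis; bars show the SE from limma, 4 against 4 chicks) at the 63 member probe sets of at least 16, grouped by gene, with a colour for each class and dotted lines at 1.5-fold in both directions. Only the second probe set of RASGRP3, at 0.80, lies beyond the 1.5-fold lines, and 38 of the 63 lie to the right of 0.

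The conventional PKC isoforms, which need both calcium and diacylglycerol, did not differ between the groups beyond the spread. PRKCA (PKC alpha, the rod bipolar marker) had log2 intensities of 9.87, 10.01, 10.03 and 9.79 in plus lens and 10.06, 9.96, 9.93 and 9.93 in control chicks. These values interleave, and the fold change was −0.05 (log2, SE 0.06, 95% interval −0.20 to 0.10). PRKCB (PKC beta) had values of 10.83, 10.96, 10.84 and 10.83 in plus lens and 10.79, 10.95, 11.05 and 10.64 in control. The plus lens chicks lay inside the control range, with a fold change of 0.01 (log2, 95% interval −0.21 to 0.23). The bipolar cell list of 4 measured genes had summed intensities of 12597 to 13552 in plus lens and 12200 to 14740 in control chicks, which overlap as well. OTX2 made the largest part of these sums (mean intensity 7441), beside VSX1 (3634), the Z-linked ISL1 (1475) and TRPM1 (489).

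Among the isoforms that respond to diacylglycerol without calcium, PRKCE (PKC epsilon) varied widely from chick to chick, with a pooled SD of 0.50 (log2) at its brightest probe set. Its brightest probe set gave 9.48, 9.54, 8.62 and 9.56 in plus lens and 9.37, 8.62, 9.46 and 8.40 in control chicks. Plus lens replicate 3 and control replicates 2 and 4 lay at 8.40 to 8.62 and the other 5 chicks at 9.37 to 9.56, so both groups held both levels. The fold change was 0.34 (log2, SE 0.33), with an exact two-sided permutation p of 0.171 and an adjusted p of 0.979 from limma. The second probe set gave 5.43, 5.80, 4.95 and 5.39 in plus lens and 5.44, 4.99, 5.82 and 5.07 in control, with the same 3 chicks lowest and a fold change of 0.06. At the third, 5.10, 4.48, 4.36 and 4.45 stood against 4.36, 3.84, 4.64 and 4.12 (0.36, log2), and control replicates 2 and 4 were again the lowest. These 2 control chicks lack W-linked signal, and with a term for it the 3 probe sets were at −0.11, −0.24 and 0.10. Plus lens replicate 3 has the signal, and the part of the signal in these values was not tested beyond that term. PRKCE was singled out after its values were seen.

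PRKCD (PKC delta, a pro-apoptotic isoform) was at 5.89 ± 0.53 (SD, n = 4) in plus lens and 5.67 ± 0.35 in control chicks, with a 95% interval of the difference from −0.50 to 0.94. The dim PRKCQ (PKC theta) had the smallest p among the PKC genes at their highest-signal probe sets, but at intensities near 4.56, where its values ran only from 2.15 to 2.33 (log2). The atypical isoforms, which need neither calcium nor diacylglycerol and act in cell polarity, varied little. PRKCI (PKC iota) was at 8.54 ± 0.05 in plus lens and 8.47 ± 0.08 in control, and PRKCZ (PKC zeta) at 9.36 ± 0.14 and 9.36 ± 0.13 (SD, n = 4 each). Across the family 10 of the 11 PKC probe sets of at least 16 were higher in plus lens, the exception being the brightest of PRKCA, with a median of 0.07 (log2) and no unadjusted p under 0.05. With a term for W-linked signal 7 of the 11 were higher and 4 lower. Several of these are probe sets of one gene on the same chicks and do not count as separate measurements.

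**Figure D3:**
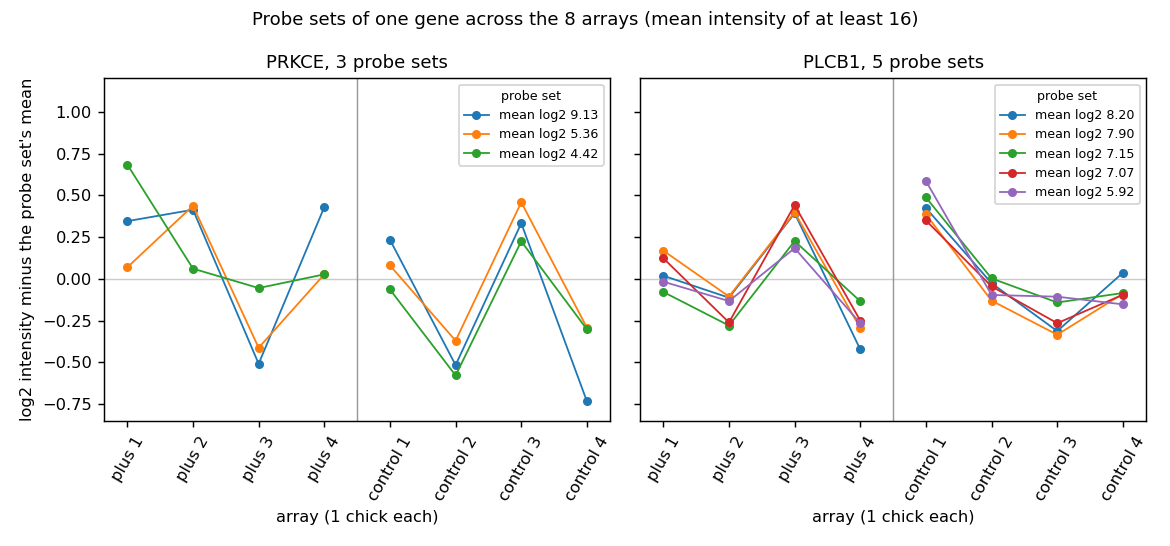
Log2 intensity minus the probe set's mean over the 8 arrays (y axis) for each probe set of at least 16 of PRKCE (left) and PLCB1 (right), with the arrays of 1 chick each along the x axis and a line for each probe set. PRKCE is low in plus lens replicate 3 and control replicates 2 and 4 at its brightest and second probe set, and PLCB1 is high in plus lens replicate 3 and control replicate 1 at all 5.

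PLC beta is the class that Gq activates, and PLCB4 was a member with an unadjusted p under 0.05. At its third-brightest probe set the plus lens chicks had 6.85, 6.91, 6.80 and 6.82 and the control chicks 6.83, 6.74, 6.63 and 6.53. Control replicate 1 lay within the plus lens values and the other controls below them. The fold change was 0.16 (log2, SE 0.07), with p = 0.0430 and adjusted p = 0.979 from limma and an exact two-sided permutation p of 0.0857. At the brightest PLCB4 probe set 9.83, 9.44, 9.43 and 9.21 stood against 9.64, 9.28, 8.99 and 9.15, where the groups overlapped and the difference was 0.21 (SE 0.18). All 4 PLCB4 probe sets of at least 16 were higher in plus lens, by 0.16 to 0.22, which is less than 1.5-fold at each.

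PLCB1, the PLC beta best known from cortex and hippocampus, differed between chicks and not between groups. At its brightest probe set it had 8.22, 8.09, 8.59 and 7.78 in plus lens and 8.63, 8.18, 7.89 and 8.24 in control chicks. Plus lens replicate 3 and control replicate 1 were the 2 highest arrays at all 5 PLCB1 probe sets of at least 16, and the fold changes ran from −0.13 to 0.08. This gene was singled out after its values were seen.

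PLC eta 1 (PLCH1), a calcium-sensitive neuronal PLC, had the smallest p among PLC genes at their highest-signal probe sets. Its brightest probe set had 12.39, 11.77, 12.09 and 12.35 in plus lens and 11.74, 11.98, 11.73 and 11.77 in control chicks. Plus lens replicates 1, 3 and 4 were above every control and plus lens replicate 2 was among them. The fold change was 0.34 (log2, SE 0.14), with p = 0.0506 and adjusted p = 0.979 from limma and an exact two-sided permutation p of 0.0571. The other 4 PLCH1 probe sets of at least 16 differed by only 0.02 to 0.15. Plus lens replicate 1 was the highest array at all 5 and plus lens replicate 2 the lowest at 4, so the spread within the plus lens group recurred across probe sets. Its relative PLCH2 went the other way at all 4 of its probe sets of at least 16, by −0.19 to −0.04, also within the spread.

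PLCG2 (PLC gamma 2, of blood cells and microglia in mammals) was higher in plus lens replicates 2 and 3. It had 5.78, 6.28, 6.30 and 5.69 in plus lens and 5.72, 5.69, 5.49 and 5.65 in control chicks, and the other plus lens chicks lay inside or just above the control range. The fold change was 0.37 (log2, SE 0.16), with an exact two-sided permutation p of 0.0857 and p = 0.0546 from limma. Of the leukocyte and microglia markers 3 of 11 lay above 16, namely CSF1R, CD74 and LCP1 (mean intensities of 147, 318 and 54). PTPRC, CD3E, CD4, CD8A, CTSS, IRF8, SPI1 and TLR4 were below it. The summed intensity of the list was 436 to 704 in plus lens and 497 to 734 in control chicks. The 2 highest plus lens sums were those of replicates 2 and 3 (704 and 687), but control replicate 2 had the highest of all. That order follows CD74, the brightest of the list, with 7.53, 8.79, 8.86 and 7.78 (log2) in plus lens chicks. Other markers went differently: among plus lens chicks CSF1R was lowest in replicate 3 (6.79) and LCP1 highest in replicate 4 (5.87). The part of these cells in the PLCG2 values was not tested. PLCG2 was singled out after its values were seen. PLCG1, the form activated by growth factor receptors, differed by −0.01 (log2, SE 0.03), one of the smallest intervals here (−0.08 to 0.06). Its values spanned only 0.10 (log2) over the arrays, and those of its other probe set of at least 16 only 0.02. Whether values this flat follow the mRNA was not tested.

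Of the other PLC genes, PLCE1, which also binds RAS, was at 5.31 ± 0.12 in plus lens and 5.15 ± 0.10 in control chicks (SD, n = 4), with an exact two-sided permutation p of 0.0857. PLCD4 was at 6.99 ± 0.12 and 7.09 ± 0.11, and PLCD1 at 4.72 ± 0.42 and 4.47 ± 0.09. The PLC-like proteins PLCL1 and PLCL2, which bind inositol trisphosphate and lack lipase activity, differed by −0.19 (SE 0.17) and 0.07 (SE 0.07). PLCL1 had 6.22, 5.97, 6.49 and 6.35 in plus lens and 6.05, 6.47, 6.64 and 6.64 in control chicks, and PLCL2 had 7.91, 7.94, 8.00 and 7.87 against 7.66, 7.90, 7.96 and 7.89. The groups overlapped in both cases. The other probe set of PLCL1, also of at least 16, went the other way (0.10, log2).

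RASGRP3, a diacylglycerol-bound activator of RAS and RAP, had the smallest p of all members and accounted for the other 2 probe sets with an unadjusted p under 0.05. At its brighter probe set the plus lens chicks had 7.36, 7.48, 7.52 and 7.49 and the control chicks 7.40, 7.33, 7.18 and 7.26. Plus lens replicates 2, 3 and 4 lay above every control, and replicate 1 fell between controls. The fold change was 0.17 (log2, SE 0.06), with p = 0.0213 and adjusted p = 0.979 from limma and an exact two-sided permutation p of 0.0571.

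The second RASGRP3 probe set gave 6.16, 7.23, 6.80 and 7.28 in plus lens and 6.41, 6.08, 6.17 and 5.60 in control chicks. Here too replicates 2 to 4 of the plus lens group lay above every control and replicate 1 among them. Here the fold change was 0.80 (log2, SE 0.29, 95% interval 0.10 to 1.50), or 1.74-fold, with p = 0.0303 and adjusted p = 0.979 from limma and an exact two-sided permutation p of 0.0857. The 2 probe sets thus shared a direction and differed in size. With a term for W-linked signal the differences were 0.17 and 0.58, with an adjusted p of 0.880 for both from limma (0.636 to 1.00 over all alternatives).

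**Figure D4:**
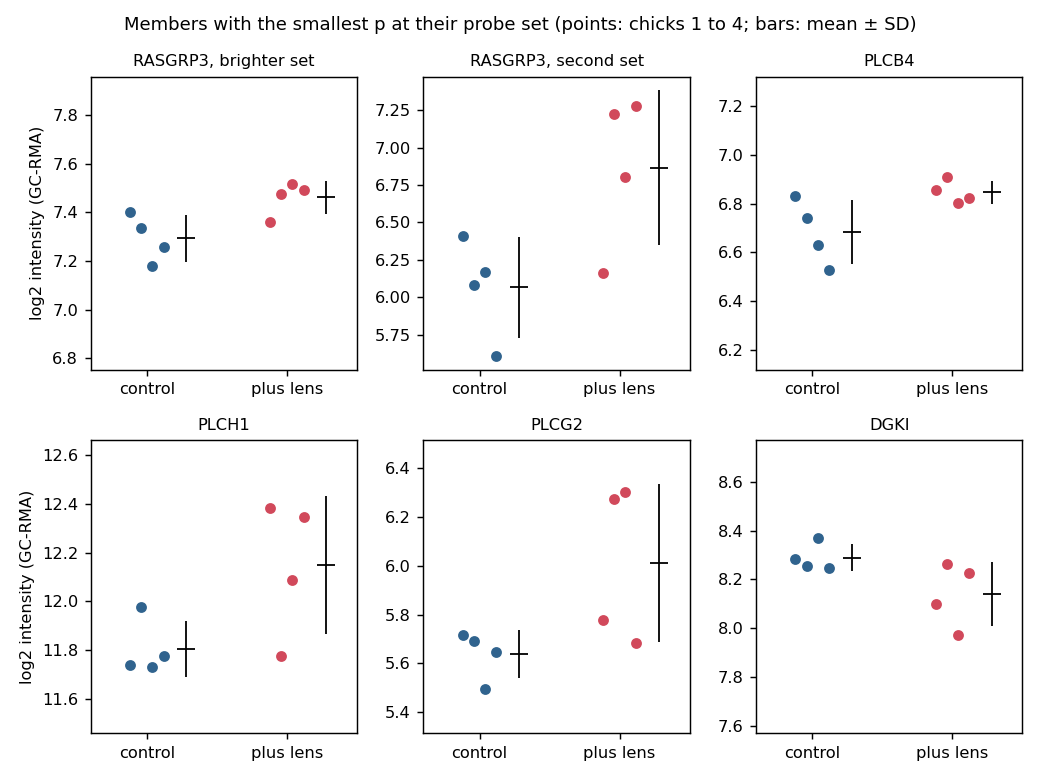
Log2 intensity (y axis, a scale of its own in each panel) of RASGRP3 at 2 probe sets, PLCB4, PLCH1, PLCG2 and DGKI, with control chicks at the left and plus lens chicks at the right of each panel, a point for each of replicates 1 to 4 from left to right, and bars for the mean ± SD (n = 4). In each panel at least 1 chick of one group lies within the range of the other.

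Whether these 3 probe sets had an unadjusted p under 0.05 depended on single chicks, while their direction did not change with any 1 array left out. Without control replicate 4, the lowest chick at the second RASGRP3 and the PLCB4 probe set, 0 of 123 members had an unadjusted p under 0.05 (background 3.94%). The log2 fold changes were then 0.16 and 0.65 for RASGRP3 and 0.11 for PLCB4, with an adjusted p of 0.983 for each from limma. Without control replicate 1 there were 6 members (4.88%, background 5.50% in the same fit), and without plus lens replicate 4 there were 5 (4.07%, background 4.17%). With a term for W-linked signal 1 member had an unadjusted p under 0.05 (background 3.69% with that term), a PLCH2 probe set at −0.26. With only the 6 arrays that carry the signal there were 3 (background 3.54%), of PLCD1, PLCH2 and PRKD3, and none of them was of RASGRP3 or PLCB4.

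The protein kinase D genes act downstream of PKC. PRKD3 had 7.16, 7.09, 6.91 and 6.66 in plus lens and 7.29, 6.54, 7.51 and 7.08 in control chicks at its brighter probe set, where the control range enclosed the plus lens values (−0.15, SE 0.22). At its other probe set control replicate 3 stood at 6.62, the other controls at 4.87 to 5.02, and the plus lens chicks between at 5.21 to 5.42. The fold change of −0.05 there became 0.37 without control replicate 3, with an adjusted p of 0.810 from limma (0.810 to 1.00 over all alternatives). With a term for W-linked signal the brighter and the other PRKD3 probe set were at −0.45 and −0.50, with an adjusted p of 0.880 for both from limma. Control replicate 2, the lowest array at the brighter probe set, lacks that signal. At the other probe set the value with the term rests on control replicates 1 and 3, at 5.02 and 6.62. It thus gives more weight to the high control replicate 3, while control replicate 1 lay below all plus lens chicks. PRKD1 had 4.15, 4.96, 4.31 and 4.09 against 4.65, 4.04, 4.10 and 4.08, with 1 high chick in each group.

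The DGK genes, which remove diacylglycerol, showed no common direction: 6 of 12 probe sets of at least 16 were higher and 6 lower. DGKI (DGK iota, of neurons) had the smallest p among the DGK genes, with 8.10, 8.26, 7.97 and 8.23 in plus lens and 8.29, 8.25, 8.37 and 8.25 in control chicks. The controls lay within 0.12 of each other, and 3 of the plus lens chicks lay below all of them. The difference was −0.15 (log2, SE 0.07), with p = 0.0692 and adjusted p = 0.979 from limma and an exact two-sided permutation p of 0.0857, and the other DGKI probe sets of at least 16 gave 0.05 and −0.08.

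DGKD (DGK delta, linked to growth factor receptor turnover in mice) had 8.44, 8.95, 9.03 and 8.74 in plus lens and 8.57, 8.70, 8.85 and 8.06 in control chicks. The difference of 0.25 (SE 0.21) was smaller than the spread within either group. Plus lens replicates 2 and 3 were the 2 highest arrays at all 3 DGKD probe sets of at least 16, where the differences ran from 0.11 to 0.47. DGKH and DGKE were also higher, by 0.44 (SE 0.24) and 0.21 (SE 0.16), and DGKZ, an abundant nuclear form in brain, differed by −0.07 (SE 0.04).

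DGKQ (DGK theta) is the only Z-linked member in the GRCg7b assembly, and males have 2 Z chromosomes and females 1. Its brightest probe set had 7.40, 7.68, 7.26 and 7.50 in plus lens and 7.58, 7.96, 7.46 and 7.83 in control chicks. Control replicates 2 and 4, those without W-linked signal, were the highest arrays, 0.37 above the other controls on average. The difference between groups of −0.25 (SE 0.14) became −0.06 with a term for W-linked signal. At the other DGKQ probe set 7.14, 7.10, 6.77 and 7.31 stood against 7.19, 7.24, 7.49 and 7.44, a difference of −0.26 (SE 0.13) that stayed at −0.26 with that term. DGKQ was singled out after its values were seen.

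The inositol trisphosphate receptors form the calcium channels of the endoplasmic reticulum. ITPR1, the main neuronal form, had 7.06, 7.31, 7.34 and 7.14 in plus lens and 7.25, 7.22, 7.34 and 7.25 in control chicks, a difference of −0.05 (log2, SE 0.07) with the groups overlapping. Those values are of its brightest probe set, and its 3 probe sets of at least 16 differed in direction, from −0.17 to 0.24. ITPR2 was at 4.24 ± 0.40 and 4.16 ± 0.26 (SD, n = 4), near the dim level. ITPR3, a dim probe set at intensities near 5.40, had the smallest p among the ITPR genes at their highest-signal probe sets and ran from 2.41 to 2.57 (log2). PRKCDBP was at 12.70 ± 0.31 in plus lens and 12.78 ± 0.26 in control chicks.

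The other genes of the pathway were taken from 8 lists, of which 127 genes outside the members had a probe set and 88 reached 16. With 1 probe set a gene, 59 were higher and 68 lower in plus lens and 0 were called at the adjusted threshold. At an unadjusted p under 0.05 there were 9 (7.09%), beside 6.44% over all 13009 genes, 2 of them higher (background 3.27%) and 7 lower (background 3.17%). Receptors that couple to Gq were mostly dim, with 6 of 24 at 16 or more. Of the Gq class subunits and their regulators, a list that also holds GNAL of the Gs class, 11 of 12 reached 16. Of calcium stores and entry 14 of 17 did, of phosphoinositide supply 16 of 20, and of inositol phosphate breakdown 7 of 10. Of diacylglycerol sources and sinks 10 of 13 did, of other diacylglycerol readers 8 of 11, and of PKC targets, anchors and phosphatases 16 of 20.

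Upstream of PLC, both Gq receptors with a small p were lower in plus lens. OPN4, a melanopsin photopigment, had 7.63, 7.77, 7.42 and 7.64 in plus lens and 7.82, 7.78, 8.27 and 8.30 in control chicks. The groups met at 7.77 and 7.78 without overlapping, and the difference was −0.43 (log2, SE 0.15, adjusted p = 0.979 from limma). The other listed melanopsin gene, OPN4-1, differed by −0.27 (SE 0.25) with overlap. UTS2R, the urotensin receptor, had 5.36, 5.35, 4.58 and 5.53 against 5.78, 5.57, 5.99 and 5.86, without overlap (−0.60, SE 0.22, adjusted p = 0.979 from limma). The study already reported UTS2R as lower on these same arrays, so its difference and its place among the lower genes are not independent results. RGS16, a GTPase activator that shortens Gq and Gi signals, had 7.27, 7.63, 7.58 and 7.56 against 7.95, 8.02, 8.22 and 7.82. All plus lens chicks lay below all controls, with a difference of −0.49 (SE 0.11, p = 0.00325 and adjusted p = 0.903 from limma) and an exact two-sided permutation p of 0.0286, the smallest that 4 against 4 allow. RIC8A, a chaperone of G alpha subunits, was lower by 0.31 on average (10.03 ± 0.22 in plus lens and 10.34 ± 0.10 in control, SD, n = 4) with overlap. GNAQ itself, the Gq alpha subunit, was at 5.93 ± 0.21 and 6.07 ± 0.26, with overlap. This gene is Z-linked, and its difference of −0.14 (SE 0.16) became 0.06 with a term for W-linked signal. The related alpha subunit GNA11 was at 7.65 ± 1.10 in plus lens and 6.68 ± 0.93 in control chicks, with overlap. That difference of 0.96 (SE 0.68) became 0.17 with a term for W-linked signal.

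Downstream, HOMER1, a scaffold that ties receptors to ITPR, had 7.14, 7.26, 7.48 and 7.45 in plus lens and 7.71, 7.64, 7.64 and 7.70 in control chicks, without overlap. The difference was −0.34 (log2, SE 0.08, adjusted p = 0.947 from limma), and as HOMER1 is Z-linked it is given with a term for W-linked signal too (−0.35). The chimaerins CHN1 and CHN2, RAC-inactivating proteins with a diacylglycerol-binding C1 domain, differed in direction, CHN1 being higher by 0.18 (11.90 ± 0.05 against 11.72 ± 0.12) and CHN2 at −0.21 (10.88 ± 0.03 against 11.10 ± 0.12, SD, n = 4), both without overlap. With the term for W-linked signal they were at 0.09 and −0.20. The calcium entry channel TRPC1 differed by 0.11 (SE 0.03, adjusted p = 0.964 from limma) and PEBP1, a RAF inhibitor released by PKC, by −0.15 (SE 0.05), both with overlap. None of these 9 passed the adjusted test, and the PKC substrate MARCKS (0.09, SE 0.13) and the PKC anchor RACK1 (−0.09, SE 0.05) differed by less. Groups did not overlap at 4.47% of all probe sets of at least 16. The 9 genes were picked by a small p, which favours genes without overlap.

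**Figure D5:**
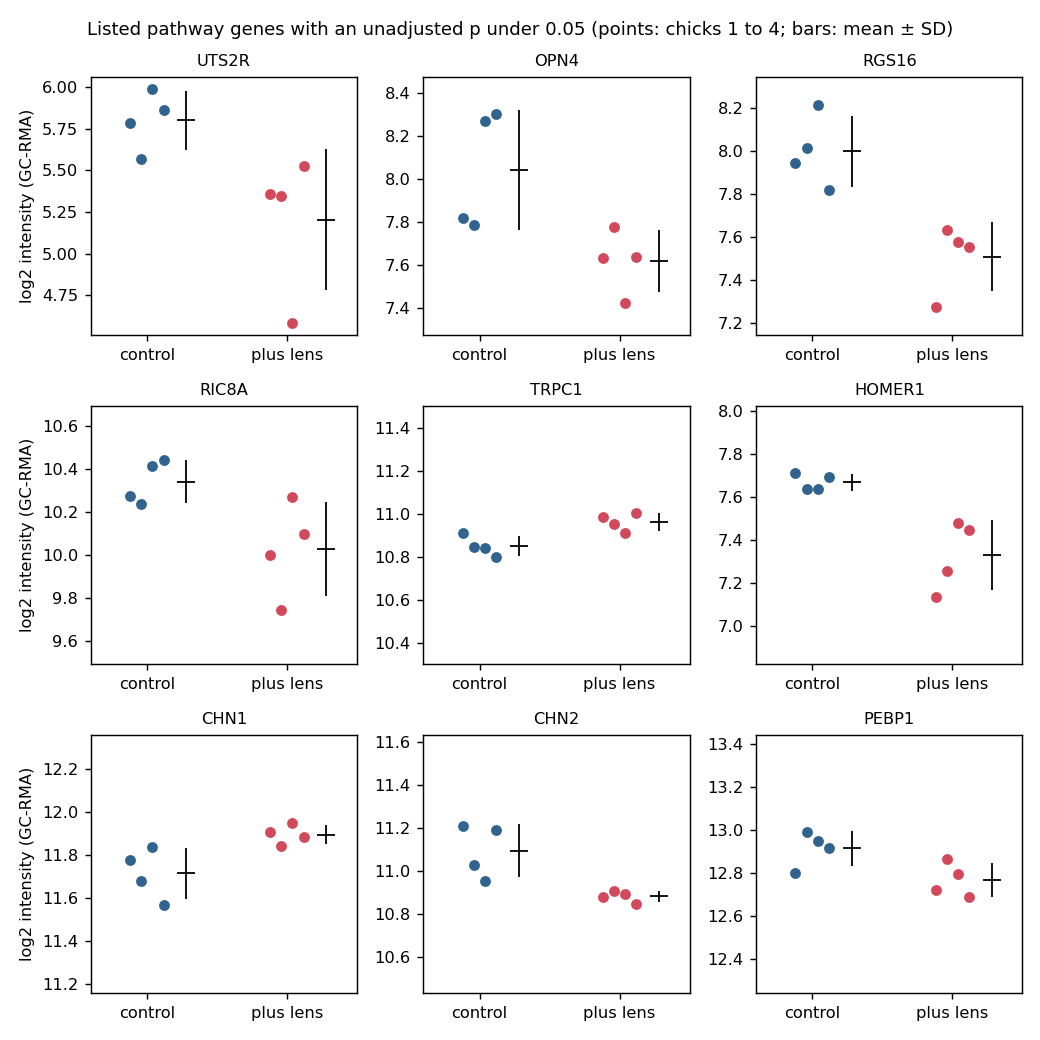
Log2 intensity (y axis, a scale of its own in each panel) of the 9 listed pathway genes outside the members with an unadjusted p under 0.05, with control chicks at the left and plus lens chicks at the right, a point for each of replicates 1 to 4 from left to right, and bars for the mean ± SD (n = 4). Groups do not overlap for UTS2R, OPN4, RGS16, HOMER1, CHN1 and CHN2 (background 4.47% of all probe sets of at least 16). They overlap for RIC8A, TRPC1 and PEBP1, and 7 genes are lower and 2 higher in plus lens.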

How the data were processed

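The deposited values are intensities on a linear scale, 1 for each probe set of each array, normalized by the authors with GC-RMA (version not given in the sources used here) in ArrayAssist 4.0 after scanning with Microarray Suite 5.0. Other deposited records were used only for fluidics station, module and scan order. Of the 38535 probe sets of the array, the 96 Affymetrix controls were dropped. Values were taken as log2 without further scaling, floor or filter.

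Platform symbols were single for 27168 probe sets, several for 177 and absent for 11094. Chromosomes came from RefSeq GRCg7b, and current symbols gave the same 123 members. Groups came from the labels. Plus lens minus control was fitted with limma 3.58.1 under R 4.3.3 (lmFit, eBayes) on all 38439 probe sets, with Benjamini-Hochberg adjustment and thresholds of 0.06 and 1.5-fold. Single probe sets also have exact two-sided permutation tests (70 relabelings, smallest p 0.0286). The number of arrays limits the precision. Steps were tested on simulated data.

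Members and lists were chosen with earlier results of these data known. UTS2R, in the list of Gq receptors, was itself reported as downregulated by the study from these arrays. It also belongs to a peptide system that the study picked from them. Array values (for some pathway genes means) were given for members with an unadjusted p under 0.05, for the genes with the smallest p and the highest signal in each class at the probe set of highest signal, for PRKCA as the bipolar cell marker, for listed pathway genes with an unadjusted p under 0.05, and for genes singled out after their values were seen, as named. The listed genes OPN4-1, GNAQ, GNA11, MARCKS and RACK1 were described outside that rule, without an unadjusted p under 0.05. Alternatives were the methods' t-test, trend with robust eBayes, array weights, quantile normalization, median centring, a floor at 16, dim probe sets left out, a replicate block, a term for W-linked signal, only arrays with that signal, 1 probe set a gene, and each array left out. The real-time PCR data, other lens powers, shorter wear and other normalizations were not analysed here.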

Additional observations from a re-analysis of the deposited data

Results flagged for a closer look

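The member probe sets named by small p or highest signal, or singled out after their values were seen, gave 60 groups of 4 chicks. In each, the lowest or highest chick was compared with the others. It was flagged where its gap to the nearest chick, over the range of the group, passed Dixon's critical value for 4 samples at 95%. Other described members, such as PRKCA, PRKCZ, PLCE1 and the brightest PLCB4 probe set, were not in these groups. The 8 flags are listed as values. Chance flags about 1 in 20 groups, but many of these probe sets were picked because a chick stood apart and several belong to 1 gene, so their number is not set against that rate. Plus lens replicate 3 was low at the brightest probe set of PRKCE (8.62, log2), where the others had 9.48 to 9.56, and plus lens replicate 1 was high at the third (5.10, others 4.36 to 4.48). Control replicate 3 was high at the dimmer PRKD3 probe set (6.62, others 4.87 to 5.02) and control replicate 1 at PRKD1 (4.65, others 4.04 to 4.10) and at a PLCB1 probe set (6.51, others 5.77 to 5.83). Plus lens replicate 2 was high at PRKCB (10.96, others 10.83 to 10.84). At the dim ITPR3 probe set control replicate 3 (2.57, others 2.41 to 2.42) and plus lens replicate 3 (2.42, others 2.41) stood apart, all under an intensity of 16.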

How the results depend on the processing

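No member was called under any alternative run, and over all probe sets the count of 0 became 1 with dim probe sets left out, 3 with the W-linked term, and 0 to 1 with an array left out (1 without control replicate 1 and without plus lens replicate 4). Members with an unadjusted p under 0.05 numbered 5 with array weights (4.07%, beside 5.88% of all probe sets in that fit), 5 with the replicate block (4.07%, beside 5.53%), 1 with the W-linked term (0.813%, beside 3.69%), 1 with 1 probe set a gene (2.5%, beside 6.44%), and 0 (without control replicate 4, beside 3.94%) to 6 (without control replicate 1, 4.88% beside 5.50%) with an array left out, in place of 3. The replicate numbers, which are also the fluidics module numbers on each station, showed little sign of pairing. Deviations of the same number correlated by −0.01 to 0.11, and 1 of 4 plus lens chicks correlated best with its own number. With 4 arrays a group these correlations do not settle whether the chicks were paired. Listed pathway genes numbered 6 to 10 in place of 9.

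Of 294 values of single members under settings other than a left-out array, 13 changed sign, and of 240 with an array left out, 23. PRKCB was at −0.00267 with median centring, −0.000826 with quantile normalization and −0.0555 with either W-linked setting. Both W-linked settings gave −0.113 and −0.239 for the first and second probe set of PRKCE and −0.0285 for one of PLCB1 (mean log2 of 7.07). These settings give the same fold changes by design, so a sign change under one was counted again under the other. Array weights gave 0.0248 for the brighter probe set of ITPRIPL2, −0.0251 for that PLCB1 probe set and 0.242 for the dimmer one of PRKD3. With an array left out, values ran from −0.0644 to 0.0734 for PRKCB, −0.0309 to 0.308 for PRKD1, −0.0512 to 0.000579 for ITPR3, −0.213 to 0.370 for the dimmer PRKD3, −0.0746 to 0.224 for the second PRKCE, and −0.438 to 0.266 and −0.550 to 0.0733 for the brighter and the dimmer probe set of ITPRIPL2. For the PLCB1 probe sets, in falling order of signal, they ran from −0.203 to 0.0698, −0.0353 to 0.226, −0.230 to 0.00804, −0.115 to 0.149 and −0.196 to 0.0607. The cause was not tested.

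With a floor at 16, probe sets dim on every array gave no value. Signal over background limits the 60 dim member probe sets, and 4 chicks a group limit the rest.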

Other observations

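ITPRIPL2, which the rule takes in by its letters, varied between chicks more than any other member of at least 16, without a difference between groups. Its brighter probe set had 4.87, 6.45, 5.29 and 6.51 in plus lens and 6.23, 6.99, 5.44 and 4.88 in control chicks (log2), and its other probe set 4.00, 4.92, 4.04 and 4.56 against 4.42, 5.86, 4.52 and 3.99. Plus lens replicate 1 and control replicate 4 were the 2 lowest chicks and control replicate 2 the highest at both, and the pooled SDs of 0.88 and 0.65 stood beside a median of 0.24 over the members. At a dim DGKE probe set (DGK epsilon, which prefers arachidonoyl diacylglycerol), plus lens replicate 2 had 4.55 and the other 7 chicks 2.31 to 2.75, which gives the only other difference of at least 1.5-fold among members (0.65, log2, SE 0.50) and 0.13 without that chick. These values were picked after they were seen.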
